A study of Mus musculus with 6 samples.

Results

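The 5 genes described here encode the secreted frizzled-related proteins: Sfrp1, Sfrp2, Sfrp4, Sfrp5 and Frzb, which is also known as Sfrp3. They were chosen by gene symbol, as 5 of the 56980 genes in the deposited count tables, and the family was selected on the level of Sfrp5, which differed in adipocytes between old and young subcutaneous fat. Values of Sfrp5 in adipocytes are therefore given as a description, without a test. Nuclei of white fat from female C57BL/6J mice were sequenced in 6 libraries of 3 groups, each with 2 libraries. Inguinal subcutaneous fat (SAT) was taken from mice aged 2 months and, in another group, 24 months, and gonadal visceral fat (VAT) from mice aged 24 months. No transgene or treatment is named for any group. The labels give 24 months for the older mice and the text of the series 26 months. The study states that both depots came from 2 mice per age, without saying which libraries share a mouse.

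Wnt proteins are secreted signals that bind Frizzled receptors and their co-receptors Lrp5 and Lrp6 on the receiving cell, and in fat they are known for holding back the formation of adipocytes. Secreted frizzled-related proteins carry a cysteine-rich domain like that of the Frizzled receptors, bind Wnt ligands outside the cell and so limit, or in some settings extend, the reach of the signal. Sfrp5 is best known in fat as a factor released by adipocytes that binds Wnt5a, while Sfrp2 and Sfrp4 are typical products of fibroblasts.

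Sfrp5 lies on the minus strand of chromosome 19 (GRCm39, 42186410 to 42190691, 3 exons in the canonical transcript) and no other GENCODE M39 gene overlaps it. Sfrp2 on chromosome 3 (83673481 to 83681623) is overlapped on the opposite strand by the long non-coding genes Gm26771 and Gm30293, of which Gm26771 was counted. How strand was used in counting is not given in the sources used here, so reads of Sfrp2 and Gm26771 cannot be told apart with certainty. Sfrp1 lies on chromosome 8 (23901263 to 23939648) and Sfrp4 on chromosome 13 (19807274 to 19817164), and neither has an overlapping gene. Frzb lies on chromosome 2 (80242313 to 80278304), with the uncounted antisense gene Gm74782 inside it.

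The stretch of 250 bases just before the annotated start of Sfrp5, chr19:42190692-42190941 on the minus strand (GRCm39, sequence from the RefSeq promoter table, whose build is GRCm38.p6, matched without mismatch to GRCm39), is shown because Sfrp5 is the member whose level differed most between the groups.
Sfrp5: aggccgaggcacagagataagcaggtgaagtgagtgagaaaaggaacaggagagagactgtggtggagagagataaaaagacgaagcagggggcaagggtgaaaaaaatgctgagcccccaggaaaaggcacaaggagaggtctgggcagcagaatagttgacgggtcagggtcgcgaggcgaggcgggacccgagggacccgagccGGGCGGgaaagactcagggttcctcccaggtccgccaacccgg
Capitals mark the 1 match found among 7 motifs searched on both strands, the GC box GGGCGG, which 32.7% of the 32851 promoters of the table hold in the same window. The TATA box TATAAA (12.4% of promoters), CCAAT (33.9%), the nuclear receptor half-site AGGTCA (14.0%), the Tcf/Lef motifs CTTTGAA (4.46%) and CTTTGAT (3.21%) and the C/EBP-type motif TTNNGCAA (9.56%) were not found in these 250 bases. The table also held Sfrp2 and Frzb, whose windows overlap the GENCODE gene and are not shown, and no entry for Sfrp1 or Sfrp4.

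After the filters of the study, 27074 of 50859 barcodes were kept, with 2490 to 5776 nuclei per library and a median of 1380 to 1878 UMIs per nucleus. The libraries held 8061862 to 16226690 UMIs in total. Levels are UMIs per 1000000 UMIs (CPM) of the nuclei of a class in a library, and all intervals are exact 95% intervals. The limit given for a count of 0 is 3 counts of the total, and both cover counting error only. The labels name the cells adipocytes, but only 6444 nuclei were adipocyte-like. Of the rest, 6779 were immune-like, 1549 like fibro-adipogenic progenitors (FAPs), 1538 mesothelial-like, 1229 endothelial-like, 646 of ovary or oviduct type, 622 epithelial-like, 136 like skeletal muscle and 72 like smooth muscle or pericytes, and 8059 stayed unnamed. All 12 adipocyte markers, with Adipoq and Plin1 among them, were present in the adipocytes of all 6 libraries. Their sum there was 20990 and 21170 CPM in young SAT, 30130 and 29960 CPM in old SAT and 29670 and 31960 CPM in VAT. It thus moved with age in SAT, and its part in the differences below was not tested. VAT replicate 2 stood apart: it held 124 adipocytes against 2603 in VAT replicate 1, 519 of the ovary or oviduct nuclei, and the highest median mitochondrial share (5.07%). That share was 1.72 and 0.918% in young SAT, 3.49 and 2.91% in old SAT and 0.776% in VAT replicate 1, so in SAT it moved with age, and its part in the differences with age below was not tested. Pairs of libraries shared 29 to 61 barcodes, at most 0.769% of the smaller library.

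Sfrp5 was detected mainly in adipocytes, which held 1699 of its 2342 UMIs (72.5%) and 29.2% of all UMIs, and almost solely at 24 months. Of these 2342 UMIs, 1533 came from SAT 24 months replicate 2. By library at 24 months, adipocytes held 82.7 and 69.3% of Sfrp5 UMIs against 26.1 and 45.5% of all UMIs in SAT, 79.0% against 70.5% in VAT replicate 1, where the shares were closest, and 18 of 36 Sfrp5 UMIs against 3.76% of all UMIs in VAT replicate 2. In SAT adipocytes at 2 months, replicate 1 had 2 UMIs of Sfrp5, both in the same nucleus, and replicate 2 had none in 754005 UMIs, which allows up to 3.98 CPM. At 24 months the level in SAT adipocytes was 157 CPM in replicate 1 (215 UMIs) and 203 CPM in replicate 2 (1062 UMIs). In VAT adipocytes of the same age it was 53.2 CPM (402 UMIs) and 46.9 CPM (18 UMIs). The young SAT libraries were at or near 0 and both VAT libraries lay between young and old SAT. Between the ages this order follows from the choice of Sfrp5, and how many of all genes separate likewise was not counted.

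By summed counts, 1277 UMIs of Sfrp5 in old SAT adipocytes stood against 2 in young ones, a ratio of rates of 225 (95% counting interval 62.2 to 1859). The fitted log2 fold change was 7.78, a value that depends on the prior count. In that fit 5 of the 12341 genes had a larger one, a rank that follows from the choice of the family by this contrast. VAT against SAT at 24 months gave a ratio of 0.273 (0.244 to 0.305) and a fitted log2 difference of -1.77. Both contrasts use the same old SAT libraries. These are levels of RNA in preparations of nuclei, which also held mitochondrial transcripts and so are not purely nuclear RNA. Fewer expressing nuclei cannot be told apart from less RNA per nucleus in a summed level.

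**Figure D1:**
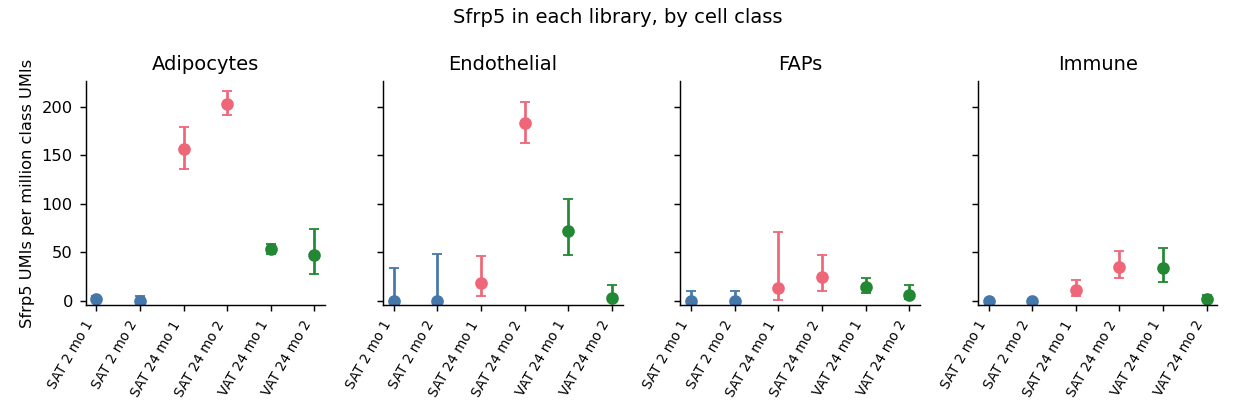
Sfrp5 level in CPM of each class (linear axis) for the 6 libraries, with bars for the exact 95% counting interval. In adipocytes the old SAT libraries sit at 157 and 203, VAT at 53.2 and 46.9 and young SAT at or near 0, while the endothelial level reaches 183 in SAT 24 months replicate 2 only.

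The share of adipocyte nuclei with at least 1 Sfrp5 UMI followed the level. It was 0.136% and 0% in SAT at 2 months, where 0 of 419 nuclei allows a share of up to 0.716%. At 24 months it was 21.35% (18.2 to 24.8%) and 24.45% (22.55 to 26.4%) in SAT, and 10.9% (9.70 to 12.1%) and 10.5% (5.70 to 17.3%) in VAT. After each nucleus was thinned to 1000 UMIs, the shares at 24 months were 13.2 and 13.7% in SAT and 4.53 and 6.45% in VAT, so the old SAT libraries stayed above VAT at equal depth. Before thinning, the median adipocyte depth was 1618 and 1878 UMIs in young SAT, 1856 and 2090 UMIs in old SAT and 2403 and 2706 UMIs in VAT. In immune nuclei, which should lack Sfrp5, the unthinned shares were 1.245 and 3.88% in old SAT, 5.07 and 0.256% in VAT and 0 in young SAT, at medians of 1236 to 1472 UMIs. Of the positive adipocytes, 44 of 133 and 227 of 474 held 2 or more UMIs in old SAT (highest 8 and 16), and 82 of 283 and 4 of 13 in VAT (highest 5 and 3), so that SAT 24 months replicate 2 stood apart from the other libraries.

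Within old SAT, Sfrp5 was not even across adipocytes. The 3 adipocyte clusters were led by Gm31517 and Eepd1, by Fam13a and Acacb, and by Cfd, Adipoq and Retn, the last of which encode the secreted factors adipsin, adiponectin and resistin. In the cluster led by Cfd, the old SAT libraries had Sfrp5 levels of 201 and 348 CPM, and the VAT libraries had 67.5 and 71.5 CPM. In the cluster led by Gm31517 it was 121 and 140 CPM in old SAT and 66.1 and 40.5 CPM in VAT. In the cluster led by Fam13a and Acacb, the second of which encodes the acetyl-CoA carboxylase of the mitochondrial membrane, it was 171 and 93.4 CPM in old SAT and 25.4 CPM in VAT replicate 1. Old SAT was above VAT in each of these clusters, and the young SAT libraries had 0 UMIs in all but the cluster led by Gm31517 of replicate 1 (4.01 CPM).

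A finer division gave 11 adipocyte sub-clusters, of which the one led by mitochondrial transcripts and Scd1 had the highest Sfrp5 in both old SAT libraries among sub-clusters of at least 20 nuclei (332 and 424 CPM). The sub-cluster with the lowest level differed between these libraries: in replicate 2 it was 48.3 CPM, in the sub-cluster led by Angpt1 and Fgf14, and in replicate 1 it was 104 CPM, in a sub-cluster led by mitochondrial transcripts. The sub-cluster led by Elovl6 and Acaca, both enzymes of fatty acid synthesis, was at 152 and 61.4 CPM in old SAT and at 3.04 CPM in VAT replicate 1. In VAT replicate 1 the levels ran from that value to 93.8 CPM. The order of the middle sub-clusters was not shared between the libraries, as the plot of Sfrp5 across adipocyte sub-clusters shows. Sub-clusters are groups of the same nuclei within a library, so these values carry no test.

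**Figure D2:**
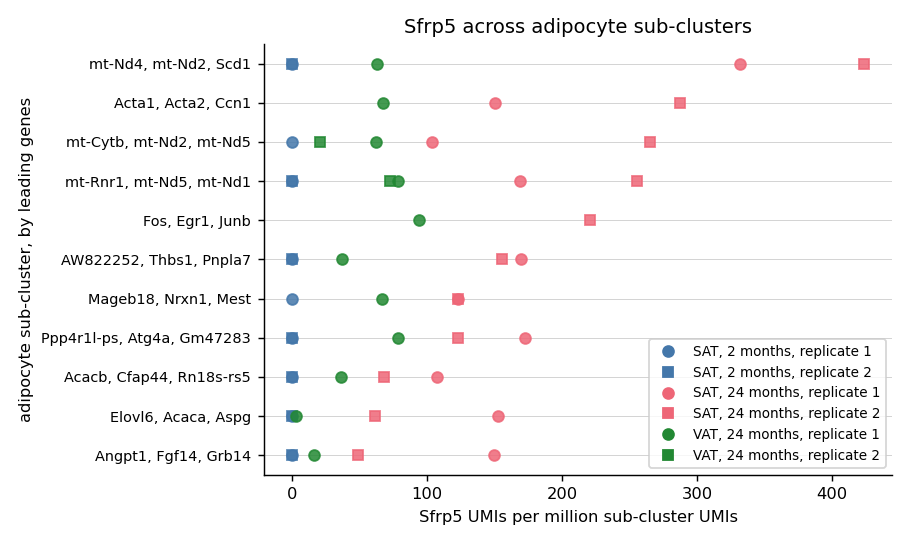
Sfrp5 level in CPM of each adipocyte sub-cluster (linear axis), with 1 point per library that holds at least 20 nuclei. The sub-cluster led by mitochondrial transcripts and Scd1 is highest in both old SAT libraries (332 and 424), and the young SAT points lie at 0.

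Outside adipocytes, Sfrp5 was found in endothelial nuclei, with 326 UMIs, of which 295 came from SAT 24 months replicate 2. The endothelial level was 18.1 CPM in SAT 24 months replicate 1 and 183 CPM in replicate 2, 71.6 and 2.86 CPM in VAT, and 0 in both young SAT libraries, and the ranges of old SAT and VAT overlap. In old SAT the class means were 180 ± 33.1 CPM (SD, n = 2) in adipocytes and 101 ± 117 CPM in endothelium. Within each library the adipocytes were higher, at 157 against 18.1 CPM and 203 against 183 CPM, and the classes were not tested against each other. In VAT replicate 1 the endothelial level was above that of the adipocytes (53.2 CPM). The means of old SAT were 32.8 ± 26.5 CPM in unnamed nuclei, 22.95 ± 17.25 CPM in immune nuclei and 18.4 ± 7.96 CPM in FAPs, with overlapping ranges, and 7.19 ± 7.54 CPM in epithelial nuclei. The lower FAP library rests on 1 UMI, so no order of FAPs and epithelial nuclei can be read. With at least 20 nuclei in 1 old SAT library only, skeletal muscle stood at 64.4 CPM (3 UMIs) and smooth muscle or pericytes at 57.3 CPM (4 UMIs).

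Adipocyte transcripts moved with Sfrp5 in these other classes. In the endothelium of SAT 24 months replicate 2, Adipoq, an adipocyte product, stood at 1578 CPM and the 12 adipocyte markers summed to 10810 CPM, against 190 and 4472 CPM in replicate 1. Per 1000 Adipoq UMIs, SAT 24 months replicate 2 held 143 Sfrp5 UMIs in adipocytes, 116 in endothelium, 125 in FAPs and 101 in immune nuclei. The ratio there was 162 in epithelial nuclei (12 UMIs) and 375 in skeletal muscle (3 UMIs). In VAT replicate 1 the same ratio was 101 in adipocytes, 131 in endothelium, 144 in FAPs, 172 in immune nuclei and 0 in 63 mesothelial nuclei. In SAT 24 months replicate 1 the ratio ran from 95.2 in endothelium (4 Sfrp5 UMIs) and 355 in adipocytes to 500 in immune nuclei (8 UMIs) and 1000 in FAPs (1 UMI). In VAT replicate 2 it was 0 in skeletal muscle, 21.7 in endothelium (1 UMI), 57.7 in adipocytes and 188 in FAPs (3 UMIs). No constant ratio can thus be read in any of these libraries. Genes abundant in adipocytes stood in unequal ratios between the endothelium and the adipocytes of SAT 24 months replicate 2: Scd1, the stearoyl-CoA desaturase, was at 11930 and 4295 CPM, Cfd at 4558 and 2323 CPM and Plin1, a lipid droplet protein, at 586 and 1741 CPM. Per 1000 UMIs of the 12 adipocyte markers, Sfrp5 was at 6.79 in the adipocytes of that library and higher in its other classes, with 8.96 in FAPs, 8.44 in immune nuclei, 9.04 in epithelial nuclei, 17.0 in endothelium and 21.3 in skeletal muscle. In VAT replicate 1 it was 1.79 in adipocytes and 5.20 to 7.60 in immune nuclei, FAPs and endothelium. The part of RNA from adipocytes in the levels of the other classes was not tested.

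Over 39 profiles of a class in a library, the genes whose log2(CPM + 1) followed Sfrp5 most closely were Npr3 (Pearson r = 0.82), a natriuretic peptide clearance receptor, Lep (0.77), the leptin gene, Cdsn (0.76), Aoc3 (0.75), a copper amine oxidase of adipocytes, and Qki (0.75), an RNA-binding protein. Lep is also 1 of the adipocyte markers that named the class, and profiles of 1 library share its depth and free RNA. With a pseudocount of 5 in place of 1, 4 of these 5 genes were again among the closest. Sfrp5 did not follow the other members (r from -0.24 with Frzb to 0.07 with Sfrp1), whereas Sfrp1 and Sfrp2 had r = 0.53 and Sfrp2 and Sfrp4 r = 0.48. Sfrp2 followed Dcn most closely (0.87), the decorin gene of fibroblasts, then Arsi, Myoc, Wnt10b and Gfpt2. For Sfrp4 the closest gene was Emx2 (0.84), a homeobox gene of the reproductive tract, then BC034090, Plat, Slit2 and E330013P04Rik. The closest genes to Sfrp1 were Dync2li1 (0.75), Map1a, Dmkn, Chrna7 and Hdnr, and to Frzb Gm16152 (0.76), Gm48678, Gm10701, 4930558K02Rik and Lipk. For Sfrp1 and Frzb, which were detected with few UMIs, the likeness rests on sparse counts, and 1 of the 5 genes of Sfrp1 and 3 of those of Frzb were kept with the larger pseudocount (2 for Sfrp2 and 3 for Sfrp4).

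**Figure D3:**
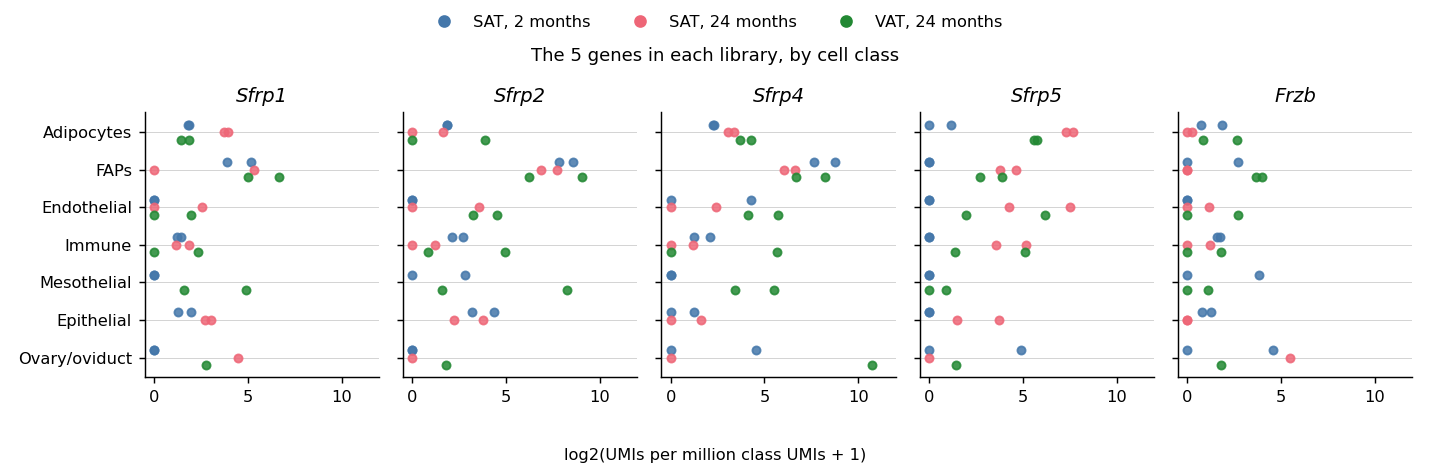
Level of each of the 5 genes as log2(CPM + 1) in 7 classes, with 1 point per library that holds at least 20 nuclei of the class, coloured by group. Sfrp5 is highest in adipocytes in both old SAT libraries and VAT replicate 2, but in endothelium in VAT replicate 1 (71.6 against 53.2 CPM). Sfrp2 is highest in FAPs, and Sfrp4 in FAPs and in the ovary or oviduct nuclei of VAT replicate 2.

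In adipocytes, Sfrp1 and Sfrp4 were also higher in both old SAT libraries than in both young ones, and of these only Sfrp1 passed with edgeR. The level of Sfrp1 was 2.55 and 2.65 CPM in SAT at 2 months, 12.4 and 14.2 CPM in SAT at 24 months, and 1.72 and 2.61 CPM in VAT. Both old SAT libraries thus stood above those of both other groups for Sfrp1. With 2 libraries per group this can arise by chance, and how many of all genes separate likewise was not counted. Sfrp1 and the other members below were included by family name, so their tests are those of the fit over all genes. The log2 fold change of old against young SAT was 2.48 (SE 0.66, edgeR adjusted p = 0.0268), in a fit in which 14.6% of 12341 genes passed the threshold of 0.05 (1800 genes, 813 higher and 987 lower). VAT against old SAT gave -2.79 (SE 0.64, edgeR adjusted p = 0.18), in a fit in which 0.162% of genes passed (20 genes).

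Only the old SAT libraries, the group where Sfrp1 was high, brought it past the minimum count of the adipocyte fit. The call on Sfrp1 rested on few counts, 91 UMIs in old SAT adipocytes and 6 in young ones. It was lost with DESeq2 (adjusted p = 0.109) and without either young SAT library (edgeR adjusted p = 0.188 without replicate 1 and 0.175 without replicate 2) or without SAT 24 months replicate 2 (0.194), though the direction held. In old SAT, Sfrp1 was highest in the adipocyte sub-cluster led by the actin genes Acta1 and Acta2 and by Ccn1 (67.8 and 51.9 CPM), against 2.87 CPM in the same sub-cluster of VAT replicate 1. The 12 FAP markers summed to 514 and 534.5 CPM in young SAT adipocytes, 664 and 1858 CPM in old SAT and 1256 and 2389 CPM in VAT, where the ranges of old SAT and VAT overlap. Their part in the level of Sfrp1 was not tested.

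Sfrp4 in adipocytes was 3.825 and 3.98 CPM in young SAT, 9.47 and 7.28 CPM in old SAT and 11.8 and 18.3 CPM in VAT, the last from 7 UMIs. In the adipocytes of that library, VAT replicate 2, 10 ovary or oviduct markers summed to 287 CPM, against 23.0 to 71.6 CPM in the other libraries, and their part in the level was not tested. Its log2 fold change of old against young SAT, 1.19 (SE 0.62), missed the threshold (edgeR adjusted p = 0.229). The difference of VAT from old SAT was 0.78 (SE 0.53, edgeR adjusted p = 0.829). Sfrp2 and Frzb did not reach the minimum count for the adipocyte fit, with 119 and 12 UMIs in all adipocytes. Of those of Sfrp2, 102 came from VAT replicate 1, and VAT replicate 2 and SAT 24 months replicate 1 had none. Thus 3 of the 5 members were tested in adipocytes. With no filter on low counts, Sfrp2 passed between VAT and old SAT adipocytes, with a log2 difference of 2.75 (SE 0.74, edgeR adjusted p = 0.0456), but not between the ages (-0.42, SE 0.94, edgeR adjusted p = 0.865). Under the other alternatives in which Sfrp2 was kept, it did not pass between depots. In VAT replicate 1, FAPs held Sfrp2 at 535 CPM and the 12 FAP markers summed to 1256 CPM in adipocytes. Their part was not tested.

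The FAPs, the stromal cells that include adipocyte progenitors, held the largest pooled share of Sfrp2. They held 839 of 1490 Sfrp2 UMIs (56.3%) in 1549 of 27074 nuclei, and 500 of the 839 came from VAT replicate 1. By library the FAP share was 56.3 and 62.2% in young SAT, 33.3 and 43.2% in old SAT and 59.5 and 42.55% in VAT. Unnamed nuclei held 55.6% in SAT 24 months replicate 1 and 42.55% in VAT replicate 2. By means over the 6 libraries, Sfrp2 was at 257 ± 173 CPM (SD, n = 6) in FAPs and 3.47 ± 5.06 CPM in adipocytes, with the lowest FAP library (74.2 CPM) above the highest adipocyte library (13.5 CPM). Sfrp2 in the unnamed cluster led by Il1rapl1 and Sntg1 reached 116 to 292 CPM in the 3 SAT libraries with at least 20 of its nuclei and 351 and 105 CPM in VAT. In the 63 mesothelial nuclei of VAT replicate 1 it was 299 CPM.

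In FAPs, Sfrp2 was 225 and 384 CPM in SAT at 2 months, 115 and 210 CPM in SAT at 24 months, and 535 and 74.2 CPM in VAT. The 2 VAT libraries enclosed all others, so no direction between depots can be read. The log2 fold change of old against young SAT was -0.83 (SE 0.81, edgeR adjusted p = 0.751) and ran from -1.45 to -0.36 when 1 library was left out (-0.36 without SAT 2 months replicate 2), and VAT against old SAT differed by 0.90 (SE 0.80, edgeR adjusted p = 0.904). Without VAT replicate 1 the depot difference turned to -1.26.

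Sfrp4 in FAPs was 202 and 428 CPM in SAT at 2 months and 63.85 and 99.1 CPM in SAT at 24 months, so that both young libraries were above both old ones. In VAT it was 296 and 100 CPM. In VAT replicate 2, Sfrp4 was also at 45.5 to 51.5 CPM in immune, endothelial and unnamed nuclei, while immune nuclei of the other libraries held 0 to 3.215 CPM. Its log2 fold change of old against young SAT was -1.86 (SE 0.65), which did not pass over all genes tested (unadjusted p = 0.0177, edgeR adjusted p = 0.372), and was -1.19 without SAT 2 months replicate 2. VAT against old SAT gave 1.26 (SE 0.64, edgeR adjusted p = 0.846) and 0.16 without VAT replicate 1. The share of FAPs with a Sfrp4 UMI, thinned to 1000 UMIs per nucleus, was 14.9 and 22.9% in young SAT, 5.66 and 3.85% in old SAT and 13.4 and 7.38% in VAT (unthinned, 18.6 and 33.5%, 5.66 and 4.33%, and 17.45 and 9.54%), at medians of 1316 to 1635 UMIs. The share of immune nuclei with a Sfrp4 UMI, unthinned, was 5.385% in VAT replicate 2 (median 1298 UMIs) and 0 to 0.412% in the other libraries.

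In the FAP fits 0% of 8208 genes passed in either contrast with edgeR, although 853 genes in the comparison of ages and 487 in that of depots had an unadjusted p under 0.05, and DESeq2 called 24 and 18 genes. Only Sfrp1, Sfrp2 and Sfrp4 were tested there. SAT 24 months replicate 1 gave 53 FAP nuclei with 78313 UMIs, in which 9 Sfrp2 and 5 Sfrp4 UMIs were counted.

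FAPs of VAT replicate 2 went against their name in part. Their 12 FAP markers summed to 4746 CPM, against 16450 to 31770 CPM in the other libraries, and 10 mesothelial markers to 3121 CPM, against 15.02 to 290 CPM. The 10 ovary or oviduct markers, none of them at 0, summed to 857 CPM there, against 26.75 to 76.6 CPM. Much of the mesothelial sum came from a sub-cluster led by Kcnd2 and Upk1b, the latter a uroplakin of mesothelium, with 138 nuclei in that library. Without this sub-cluster the mesothelial sum in VAT replicate 2 was 1690 CPM. Sfrp2 was then 62.6 CPM and Sfrp4 108 CPM there, and Sfrp1 went from 102 to 170 CPM, as the plot of the FAP levels shows. The part of these nuclei in the depot comparison was not tested beyond this.

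**Figure D4:**
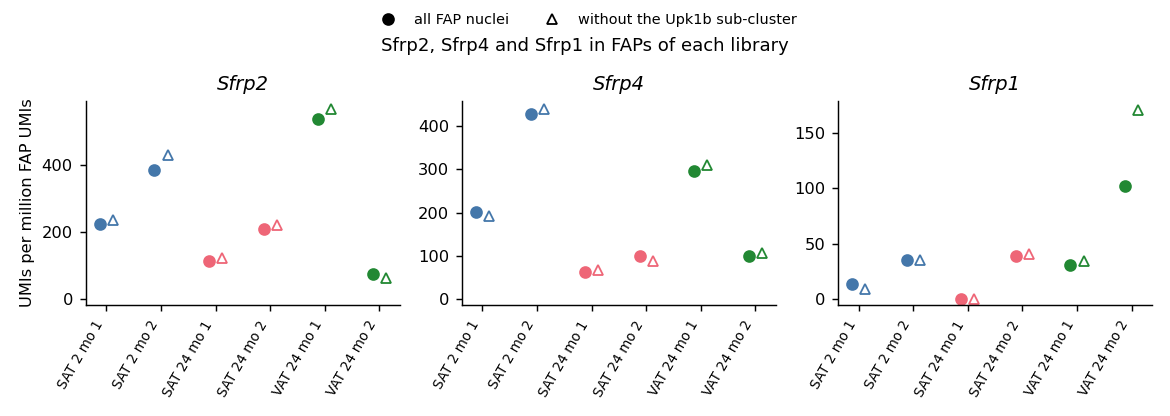
Sfrp2, Sfrp4 and Sfrp1 in CPM of the FAPs (linear axes) in each library, for all FAP nuclei (filled circles) and without the sub-cluster led by Kcnd2 and Upk1b (open triangles). Sfrp4 is lower in both old SAT libraries (63.85 and 99.1) than in both young ones (202 and 428), and the 2 VAT libraries lie far apart for Sfrp2 (535 and 74.2).

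The sub-clusters of FAPs differed in which member they held. The sub-cluster named from markers of Dpp4 progenitors, which is led by Pi16 and Sema3c, had Sfrp4 at 494 and 415 CPM but Sfrp2 at 57.0 and 80.3 CPM in young SAT. In SAT 24 months replicate 2 the same sub-cluster had Sfrp2 at 507 CPM and Sfrp4 at 253.5 CPM, from 22 nuclei, and in VAT replicate 1 Sfrp2 at 857 CPM and Sfrp4 at 336 CPM, from 159 nuclei. Sfrp2 there thus rested on 3 and 6 UMIs in the young libraries and on 20 and 232 UMIs in these old ones. In VAT replicate 2 it was 59.0 CPM, from 3 UMIs, so that the VAT libraries differed.

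The Col15a1 preadipocyte sub-cluster, led by Scd1 and the basement membrane collagen gene Col4a1, had Sfrp2 at 291 and 362 CPM in young SAT and Sfrp4 at 13.85 and 284 CPM. In SAT 24 months replicate 2 it had 143 CPM of Sfrp2 and no Sfrp4 UMI in 84 nuclei, while in VAT Sfrp2 was at 289 and 241 CPM and Sfrp4 at 185 and 65.8 CPM. This sub-cluster held 36 of 188 and 21 of 179 FAP nuclei in young SAT, 12 of 53 and 84 of 208 in old SAT, and 103 of 596 and 30 of 325 in VAT, and these shares were not tested. Among sub-clusters of at least 20 nuclei, VAT replicate 1 and SAT 2 months replicate 2 had their highest levels of both genes in the unnamed sub-cluster led by Thbs2, Cilp and Ly6c1, matrix genes of fibroblasts among them. Its leading genes also held Mx1, Bst2 and Isg15. Here VAT replicate 1 had 1208 CPM of Sfrp2 and 853 CPM of Sfrp4, and SAT 2 months replicate 2 had 805 and 701 CPM, but the 23 nuclei of VAT replicate 2 had 53.5 and 0 CPM. In SAT 2 months replicate 2 its 47 nuclei held 108 of the 140 Sfrp2 UMIs and 94 of the 156 Sfrp4 UMIs of all FAPs. In SAT 2 months replicate 1 its 18 nuclei held 34 of 80 and 33 of 72, and in SAT 24 months replicate 2 its 8 nuclei held 13 of 70 and 12 of 33. The Sfrp2 and Sfrp4 UMIs fell in partly different nuclei. In VAT replicate 1, 164 FAP nuclei held Sfrp2 and 104 held Sfrp4, and 40 held both, 24.4% of the first and 38.5% of the second.

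Sfrp4 had a further source outside fat. The ovary or oviduct nuclei held 2000 of its 3245 UMIs (61.6%), nearly all in VAT replicate 2. In that library the cluster led by Cyp11a1, Lhcgr and Hsd3b1, genes of steroid hormone synthesis and of the luteinising hormone receptor, stood at 2600 CPM over 355 nuclei, and Sfrp4 was itself among the 10 leading genes of this cluster. With these nuclei the level of Sfrp4 over all nuclei of VAT replicate 2 was 241 CPM, and without the ovary or oviduct class it was 51.0 CPM. The other libraries ranged from 3.80 to 37.0 CPM with the class. In the same library Sfrp4 was at 251 CPM in skeletal muscle nuclei and 44.4 CPM in mesothelial nuclei, against 0 CPM in the muscle nuclei of SAT 24 months replicate 2. What free RNA of the ovarian nuclei adds to these, and to Sfrp4 in the FAPs and adipocytes of that library, was not tested.

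Sfrp1 was spread more thinly, with 445 UMIs in all, 115 of them in FAPs, 111 in adipocytes and 155 in unnamed nuclei. In FAPs it was 14.0 and 35.7 CPM in young SAT, 0 and 39.1 CPM in old SAT and 31.0 and 102 CPM in VAT (34.9 and 170 CPM without the sub-cluster led by Kcnd2 and Upk1b). The log2 fold change of old against young SAT, 0.18 (SE 0.95, edgeR adjusted p = 0.964), had no stable sign. That of VAT against old SAT was 1.22 (SE 0.87, edgeR adjusted p = 0.882), 0.21 without VAT replicate 2 and 7.87 without SAT 24 months replicate 2, which leaves an old SAT library at 0. The sub-cluster with markers of F3-positive FAPs, led by Fmo2, Mgp and Gdf10, had 292 CPM in VAT replicate 1, the 1 library with at least 20 such nuclei. Sfrp1 was among the 10 leading genes of this sub-cluster. Outside the named classes, Sfrp1 was at 107 and 44.8 CPM in young SAT and 137 and 118 CPM in old SAT in a cluster led by Cxcl14 and the smooth muscle myosin gene Myh11, with 0 UMIs in 23 nuclei of VAT replicate 1 and 114 of replicate 2. These zeros allow up to 75.0 and 16.2 CPM, so in VAT replicate 1 a level as in young SAT replicate 2 is not excluded.

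Frzb was near the limit of detection, with 97 UMIs among the 27074 nuclei. Its level over all nuclei was between 0.44 and 2.45 CPM in the 6 libraries. FAPs held 21 of these UMIs, with 11.8 and 14.8 CPM in VAT, 5.61 and 0 CPM in young SAT and none in old SAT. The F3 sub-cluster of VAT replicate 1 reached 156 CPM. Frzb passed the minimum count in neither fit, and with no filter on low counts it passed the threshold in no class or contrast fitted (edgeR adjusted p from 0.516 to 0.992).

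Of 97 further genes of the Wnt pathway, 54 were tested in adipocytes, and 5 rose and 4 fell in old against young SAT with edgeR (16.7%, against the 14.6% of all genes tested), a share close to the background. The median log2 fold change was 0.29 for these genes and 0.0026 for all genes. Among 12 receptors tested, 2 rose: Fzd4, a Frizzled receptor, from 412 and 306 CPM to 892 and 1151 CPM (edgeR adjusted p = 0.00348 for a log2 fold change of 1.64, SE 0.29), and Ryk, a Wnt co-receptor kinase (0.99, SE 0.30, edgeR adjusted p = 0.0442). Lgr4, a receptor for R-spondins, rose by 1.37 (SE 0.25, edgeR adjusted p = 0.00426). The co-receptors Lrp5 and Lrp6 had log2 fold changes of 0.58 and 0.15 and did not pass (edgeR adjusted p = 0.182 and 0.743).

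None of the 6 ligand genes tested passed. Wnt5a, the ligand known to bind Sfrp5, was 26.8 and 19.9 CPM in young SAT adipocytes, 20.4 and 37.9 CPM in old SAT and 21.3 and 13.0 CPM in VAT (0.46, SE 0.40, edgeR adjusted p = 0.488 for the ages). Wls, which carries Wnt proteins to the cell surface, had a log2 fold change of 0.50 (SE 0.23, edgeR adjusted p = 0.173). Of 3 target genes tested, Nkd1, an inhibitor induced by the pathway, rose from 4.46 and 11.9 CPM to 44.4 and 40.0 CPM (2.66, SE 0.45, edgeR adjusted p = 0.00267), whereas Axin2, a widely used readout of the pathway, did not pass (0.68, SE 0.35, edgeR adjusted p = 0.221).

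**Figure D5:**
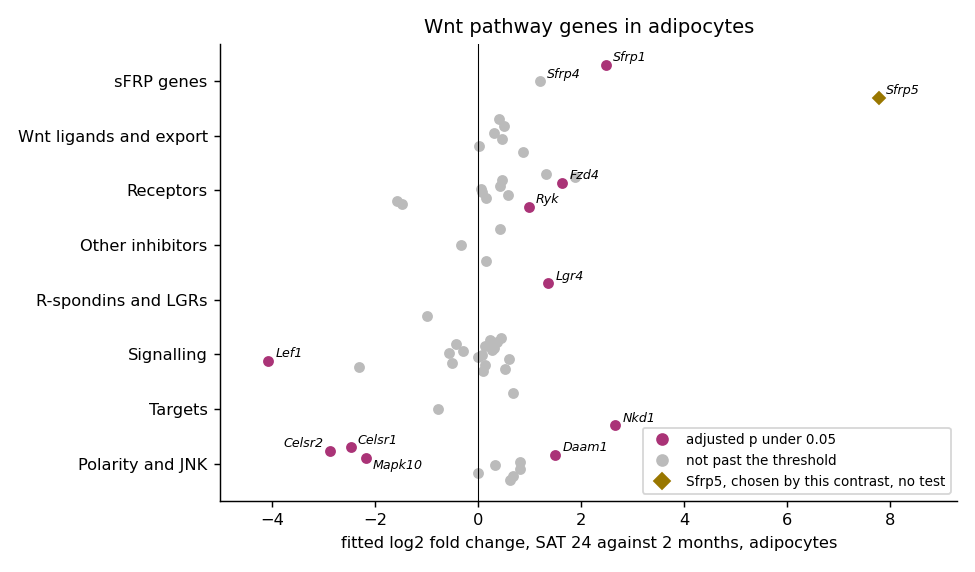
Fitted log2 fold change of old against young SAT in adipocytes for the tested members and Wnt pathway genes, 1 point per gene, grouped by role, with genes past an edgeR adjusted p of 0.05 coloured and named. Sfrp5 (7.78) is marked apart because the family was chosen by it, and 5 of the other pathway genes rose and 4 fell.

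Among the mediators, 1 of 18 tested passed, the transcription factor gene Lef1, which fell from 31.9 and 49.1 CPM to 4.37 and 1.15 CPM (log2 fold change -4.08, SE 0.69, edgeR adjusted p = 0.0027). Tcf7l2, the main factor of this family in fat, had a log2 fold change of 0.09 (SE 0.33, edgeR adjusted p = 0.889). Of 10 polarity and JNK genes tested, Daam1 rose (1.49, SE 0.28) and Celsr2 (-2.86, SE 0.35), Celsr1 (-2.47, SE 0.68) and Mapk10 (-2.18, SE 0.62) fell. Lef1 is known from T cells and the Celsr genes from epithelium, and markers of both cell types moved with them. In young SAT adipocytes the 12 immune markers summed to 431 and 744 CPM, against 110 to 133 CPM in old SAT, with none of them at 0. The 12 epithelial markers summed to 122 and 179 CPM, against 69.9 and 70.5 CPM, with Krt17 at 0 in young replicate 1 and Krt14, Krt17 and Prom1 at 0 in old replicate 1. Their part in these falls was not tested.

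Among genes outside these lists, Mest, an imprinted gene linked to adipocyte size, was at 3.825 and 0 CPM in young SAT adipocytes and 75.0 and 149 CPM in old SAT (5.59, SE 0.57, edgeR adjusted p = 0.000167). Bmp3, a secreted inhibitor of bone morphogenetic protein signals, rose from 23.0 and 6.63 CPM to 122 and 153 CPM (3.19, SE 0.39, edgeR adjusted p = 0.000424). In VAT, Mest was 104 and 117 CPM, a log2 difference from old SAT of -0.01 (SE 0.35, edgeR adjusted p = 0.998). Bmp3 was 63.3 and 54.8 CPM there, below both old SAT libraries, with a log2 difference of -1.15 (SE 0.34) that did not pass (edgeR adjusted p = 0.426).

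Between VAT and SAT at 24 months, 0 of the 54 Wnt pathway genes tested in adipocytes passed with edgeR, against 0.162% of all genes. Fzd4 (-0.49, SE 0.28), Wnt5a (-0.60, SE 0.40), Lrp5 (-0.45, SE 0.28), Axin2 (-0.11, SE 0.34) and Nkd1 (-0.15, SE 0.36) all missed the threshold. In FAPs, 0 of 52 pathway genes passed in either contrast. Axin2 in FAPs was 34.2 CPM in VAT replicate 1 and 137 CPM in replicate 2, the library with mesothelial markers in its FAPs, against 51.1 and 9.01 CPM in old SAT (2.07, SE 0.92, edgeR adjusted p = 0.837 for the depots). Wnt5a in FAPs was 28.1 and 52.1 CPM in young SAT, 63.85 and 21.03 CPM in old SAT and 73.8 and 89.1 CPM in VAT (1.30, SE 0.62, edgeR adjusted p = 0.845 for the depots). Fzd4 in FAPs had log2 fold changes of 1.19 (SE 0.61, edgeR adjusted p = 0.526) with age and -0.75 (SE 0.59, edgeR adjusted p = 0.892) between depots.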

How the data were processed

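The deposited files hold raw UMI counts per gene and barcode. As its methods state, the authors of the study checked by DAPI staining that nuclei were single, made libraries with the Singleron GEXSCOPE kit and aligned reads to GRCm39 with Celescope. The annotation release is not given in the sources used here. Nuclei had to show more than 500 genes, more than 1000 UMIs and less than 15% of UMIs from mitochondria, as in the study. The members were left out of the 1000 variable genes. The 30 principal components were adjusted for library by Harmony, rewritten in Python, and clustered with Leiden (resolution 2.0, sub-clusters 1.0, seed 1, leidenalg 0.10.2, Python 3.11.15).

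Clusters were named from marker lists: the 5 highest marker folds had to average at least 1 on the log2 scale, at least 3 markers had to exceed 2-fold, the next list had to be at least 1.0 lower, and the 20 leading genes had to hold at least 1 own marker and no more of any other list. This rule went through 3 versions after clusters, and levels of the members in them, had been seen. The members and lists were chosen with earlier results of these data known. Names are candidate identities, so "-like" is meant wherever a class is named. Scrublet (scanpy 1.11.5) called 0.052 to 0.562% of nuclei per library, too few to be used, so no doublets were removed.

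Counts were summed per library and class (at least 20 nuclei) and tested with edgeR 4.0.16 (R 4.3.3), quasi-likelihood test, over all 6 libraries with TMM, filterByExpr and Benjamini-Hochberg adjustment over all genes tested. An SE is the absolute log2 fold change divided by the square root of the F statistic of that test. A group has 2 libraries. The study states 2 mice per age, but not which library came from which mouse, and p-values measure the spread between libraries. The fit was also run on simulated counts with a fixed spread, as a check of the code only. Genes named are the members, the 5 genes most like each, the class markers, and of the Wnt lists up to 10 genes past the threshold per class and contrast, with Wnt5a, Wls, Axin2, Nkd1, Lrp5, Lrp6, Fzd4, Tcf7l2, Mest and Bmp3 in any case. Sub-clusters and other clusters were singled out after their values were seen. Alternatives were DESeq2 1.42.0, other scaling, filters, libraries and clusterings. Positions are from GENCODE M39 (GRCm39).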

Additional observations from a re-analysis of the deposited data

How the results depend on the processing

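The values of Sfrp1 and Sfrp4 in adipocytes, of Sfrp5 in adipocytes and of Sfrp4 in FAPs kept their direction under all 14 alternatives run for each. The log2 fold change of Sfrp5 in old against young SAT ran from 7.30 to 12.1 (without SAT 2 months replicate 1, which leaves young SAT with 0 UMIs, so the value depends on the prior count; at most 8.04 otherwise) and that of VAT against SAT from -1.97 to -1.63. With no filter on low counts Sfrp1 passed between VAT and SAT adipocytes (edgeR adjusted p = 0.0453), and so did Sfrp2 (0.0456), which the filter removed; under the 4 other alternatives in which Sfrp2 was kept it did not pass (0.148 to 0.903). Sfrp1 in FAPs with age reversed with the replicate block (-0.20), without SAT 2 months replicate 1 (-0.40) and without SAT 24 months replicate 2 (-6.49; 0.98 at most without 1 library), and Sfrp2 in FAPs between depots reversed without VAT 24 months replicate 1 (-1.26; 1.71 without VAT replicate 2). The causes were not tested.

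Counts of called genes moved more. In adipocytes with age, leaving out 1 library gave 351 to 1775 genes (564 without SAT 2 months replicate 1 and 351 without replicate 2) and 3 to 10 Wnt pathway genes (3 and 4 without these libraries), against 1800 and 9. In adipocytes between depots, against 20 genes and 0 pathway genes, no filter gave 140 and 1, the 4 libraries of the contrast 0, clusters without Harmony 7, and leaving out 1 library 2 to 128 and 0 to 1 (2 without VAT replicate 1, 45 without VAT replicate 2, 128 without SAT 24 months replicate 1 and 58 without replicate 2). In FAPs with age, against 0 and 0, DESeq2 called 24 genes, no filter 148 and 1 pathway gene, the 4 libraries 84 and 1, and clusters without Harmony 129 and 2. In FAPs between depots, DESeq2 called 18 and 2, no filter 199 and 3, clusters without Harmony 19, the looser nucleus filter 3, and leaving out 1 library 0 to 527 and 0 to 9 (527 and 9 without VAT replicate 1, 40 without VAT replicate 2). Without Harmony young SAT had 21 and 3 adipocytes, so the adipocyte contrast of ages was not run.

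Shared replicate numbers were not shown to pair the libraries (correlations of deviations -0.106, 0.0087 and 0.119 in adipocytes and -0.0435 to -0.0085 in FAPs). With the replicate block 33 genes were called between depots and 2012 with age in adipocytes, and with the SAT 2 months numbers exchanged 2300 with age. The exchange, the removal of the 6% highest doublet scores, FAPs without the sub-cluster led by Upk1b and adipocytes with the cluster led by Gm10801 were chosen after seeing the data. A group holds 2 libraries, and SAT 24 months replicate 1 holds 53 FAP nuclei. What sets the number of FAP calls was not tested.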
